A study of Mus musculus with 24 samples.

Results

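Zdhhc8 and 9 related genes that encode neuronal palmitoyltransferases were followed in the prefrontal cortex of mice that carry the Df(16)A deletion. The 10 genes were chosen by name, as Zdhhc8 and Zdhhc family members with described functions in neurons, and all 10 were found among the 18820 genes measured. Each was represented by a probe set annotated to that gene alone, and by the brightest of these for Zdhhc17, the member with more than 1. Zdhhc8 lies on chromosome 16 inside the deleted segment. The other members lie elsewhere, Zdhhc5 on chromosome 2, Zdhhc2 and Zdhhc7 on 8, Zdhhc3 on 9, Zdhhc13 on 7, Zdhhc17 on 10, Zdhhc21 on 4, and Zdhhc9 and Zdhhc15 on X. The question put to the data was whether the loss of 1 Zdhhc8 copy came with a higher level of any related gene.

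The series holds 24 arrays, each hybridised with total RNA from the prefrontal cortex of a male mouse aged 8 weeks on a C57BL6/J background. Of these, 12 were heterozygous for the engineered deletion, written Df(16)A+/- or Df16(A)+/- in the labels, and 12 were wild-type littermates. The deletion removes 1 copy of many genes besides Zdhhc8 and models the human 22q11.2 microdeletion, so no difference between the genotypes can be assigned to Zdhhc8. The labels do not say that each array is a separate litter, and p-values measure the spread between these arrays. Expression values are RMA values on the log2 scale, on which a difference of 1 is a doubling or a fall to 50%. The table carries no detection call, so no gene could be called absent, and levels of different probe sets are not comparable with each other.

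Protein S-palmitoylation attaches a fatty acid to cysteine through a thioester bond, and brings soluble proteins to membranes or steers membrane proteins between compartments. The modification is reversible: enzymes with an Asp-His-His-Cys motif, the Zdhhc family, add the lipid, and thioesterases remove it. In neurons, receptors, scaffolds, vesicle proteins and small GTPases are modified in this way, and the palmitate on the postsynaptic scaffold PSD-95, the product of Dlg4, turns over with synaptic activity. Zdhhc5 and Zdhhc8 form a closely related pair within the family, with long carboxy-terminal tails that bind PDZ domain proteins.

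Zdhhc8, an enzyme of dendrites and axons for which the scaffolds Grip1 and Pick1 are described substrates, was lower in every mutant than in every wild type. In the 12 wild types the log2 level was 10.61 at the lowest, 10.80 at the median and 10.95 at the highest. In the 12 mutants the corresponding levels were 9.85, 9.98 and 10.15. The groups did not overlap: the highest mutant, replicate 1, stood 0.46 below the lowest wild type, replicate 9. Such complete separation downwards was found for 20 of the 18820 genes (0.106%). Most of the 26 measured genes listed for the deleted interval were separated in this way, so the trait is not particular to Zdhhc8.

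The mean log2 level of Zdhhc8 fell from 10.78 ± 0.08 (SD, n = 12) to 9.98 ± 0.09. The log2 fold change was -0.80 ± 0.03 (SE), with a 95% confidence interval from -0.88 to -0.73 (limma, adjusted p = 4.06e-15). The measured level in mutants was thus 57.2% of that in wild types, with an interval from 54.5% to 60.2% that did not reach 50%. Nor did the interval of any other gene listed for the deleted segment reach 50%. The largest fall among them, that of Slc25a1, was to 54.5%, with an interval from 52.2% to 56.9%. The spread among mutants was of the same size as that among wild types. In arrays 1 to 12 by running number, with 7 mutants and 5 wild types, the log2 fold change was -0.81. In arrays 13 to 24, with 5 mutants and 7 wild types, it was -0.82 (limma interaction of genotype and array range, adjusted p = 0.982).

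**Figure D1:**
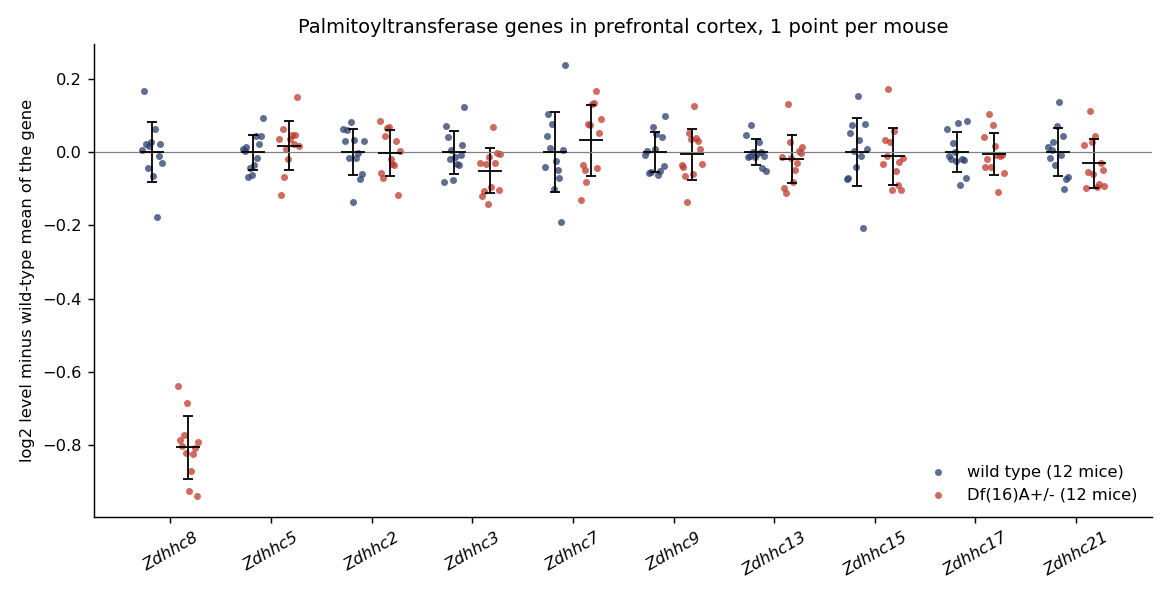
Log2 level of each of the 10 palmitoyltransferase genes in each mouse, given relative to that gene's wild-type mean (vertical axis, log2 units); dark blue points are wild types, red points mutants, and black bars the mean and SD of 12 mice. The 12 mutants lie apart from the 12 wild types for Zdhhc8, by 0.46 at the nearest, and the genotypes overlap for the 9 other genes.

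Among 26 measured genes listed for the deleted interval, a list that does not hold every gene of the segment, Zdhhc8 had the fourth largest fall, and 3 genes fell further. The nearest with larger falls were 2510002D24Rik, at -0.82 ± 0.03 (SE), and Ufd1, which helps to extract ubiquitin-tagged proteins for degradation, at -0.88 ± 0.02. Just after it came Dgcr2, an adhesion receptor-like protein, at -0.80 ± 0.02, and Tango2, a gene linked to membrane traffic, at -0.77 ± 0.02. The 95% confidence intervals of 11 of the 25 other genes overlapped that of Zdhhc8, so its place in this order is not fixed. Of the 26 listed genes 20 passed the test as lower (limma), against 0.228% of all genes, and 6 did not pass. The median log2 fold change was -0.70 over the 20 that passed. Over all 26 it was -0.64, with 25 below 0.

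In the RefSeq gene table of assembly GRCm38.p6, the measured neighbours of Zdhhc8 on one side are Ranbp1, which assists nuclear transport, and Trmt2a, a tRNA methyltransferase. Ranbp1 fell by 0.77 ± 0.03 (SE) on the log2 scale, with 12 of 12 mutants below all wild types, and Trmt2a by 0.68 ± 0.04, also with 12 of 12. On the other side the measured neighbours are 4933432I09Rik, a long noncoding RNA that is not in that list, and Rtn4r, the Nogo receptor. The log2 fold change was -0.53 ± 0.09 for 4933432I09Rik, with 8 of 12 mutants below all wild types, and -0.68 ± 0.05 for Rtn4r, with 12 of 12. All 4 passed the test (limma, adjusted p = 0.000591 for 4933432I09Rik and smaller for the other three). Zdhhc8 therefore fell together with its measured neighbours on both sides.

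**Figure D2:**
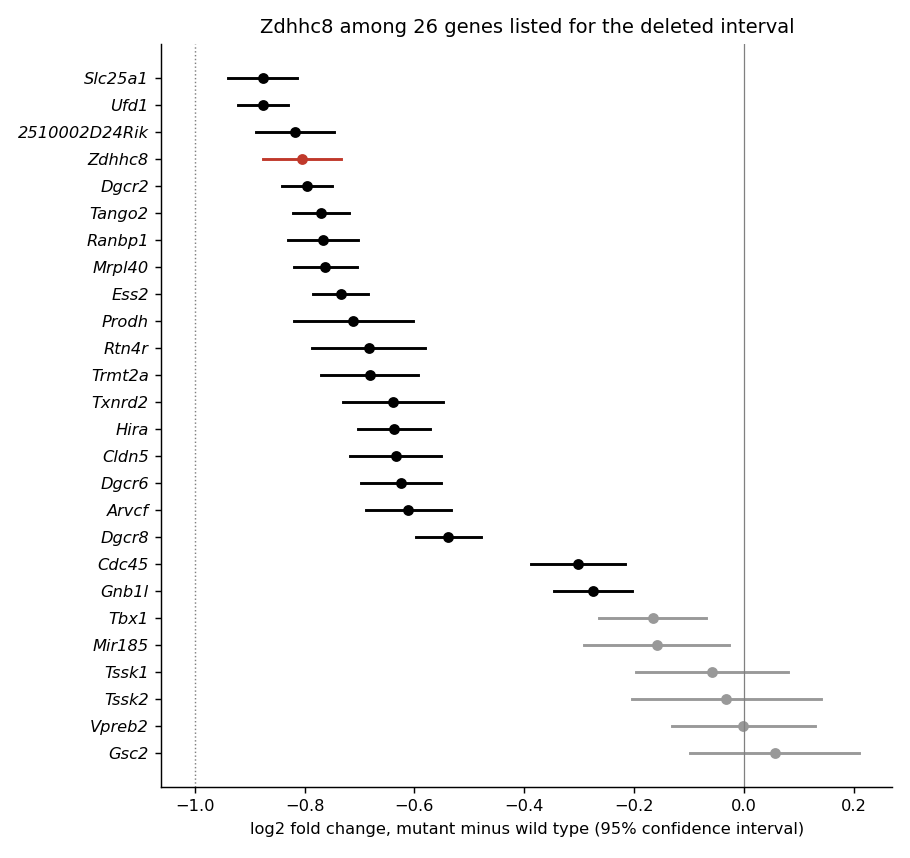
Log2 fold change, mutant minus wild type, of 26 measured genes listed for the deleted interval, with 95% confidence intervals (horizontal axis); Zdhhc8 is red, other genes past the adjusted threshold black, and genes that did not pass grey. The dotted line at -1 marks a fall to 50%, and Zdhhc8 lies at -0.80, within the intervals of several other genes.

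Zdhhc5, the closest relative of Zdhhc8, modifies substrates in dendrites that include delta-catenin, and shares Grip1 with Zdhhc8. Its log2 level in wild types was 10.35 at the lowest, 10.42 at the median and 10.51 at the highest. In mutants it was 10.30 at the lowest, 10.44 at the median and 10.56 at the highest. The groups overlapped, with 10 of 12 mutants inside the range of the wild types, 1 below it and 1 above it. The means of the genotypes were 10.41 ± 0.05 (SD, n = 12) for wild types and 10.43 ± 0.07 for mutants. This is a log2 fold change of 0.018 ± 0.026 (SE), with a 95% confidence interval from -0.036 to 0.072 (limma, adjusted p = 0.829). In percent, the interval runs from -2.44% to 5.10%, so a rise as large as the fall of Zdhhc8 lies outside it, and a rise of a few percent lies inside.

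A further probe set is annotated to both Zdhhc5 and Med19, a subunit of the Mediator complex. It had a log2 fold change of -0.0047 ± 0.044 (SE), also without passing the test. The Zdhhc5 value was 0.0087 in arrays 1 to 12 and 0.043 in arrays 13 to 24, and 0.016 without the mutant arrays of replicates 5, 9 and 10. Those 3 arrays have the highest scores on the first principal component of all genes.

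The remaining members were grouped by the compartments and substrates for which they are known. Zdhhc2 and Zdhhc15 are known for palmitoylating PSD-95. Zdhhc2, which travels on vesicles in dendrites, ran from 10.46 to 10.67 in wild types, with a median of 10.61, and from 10.47 to 10.68 in mutants, with a median of 10.58. Its log2 fold change was -0.0028 ± 0.028 (SE), with an interval from -0.060 to 0.055. Of the 12 mutants, 11 lay within the wild-type range. Zdhhc15 ran from 7.72 to 8.08 in wild types, with a median of 7.93, and from 7.82 to 8.10 in mutants, with a median of 7.90. Its log2 fold change was -0.012 ± 0.036, with an interval from -0.085 to 0.062. For this gene too 11 mutants lay within the range of the wild types.

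Zdhhc3 and Zdhhc7 are related enzymes of the Golgi apparatus, for which subunits of GABA-A and AMPA receptors are known substrates. Zdhhc3 had the largest difference among the members other than Zdhhc8. In wild types it ran from 10.22 to 10.43, with a median of 10.29, and in mutants from 10.16 to 10.37, with a median of 10.27. Here 5 of 12 mutants lay below all wild types and the other 7 within their range. Expressed as a log2 fold change, the difference was -0.050 ± 0.027 (SE), with an interval from -0.11 to 0.0049, and it did not pass (limma, adjusted p = 0.471; unadjusted p = 0.0722). Zdhhc7 ran from 8.58 to 9.01 in wild types, with a median of 8.77, and from 8.64 to 8.94 in mutants, with a median of 8.84. All 12 mutants lay within the wild-type range. With a log2 fold change of 0.032 ± 0.042, it had the widest interval of the 10, from -0.054 to 0.12, or up to 8.56% higher.

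Zdhhc17 and Zdhhc13 carry ankyrin repeats and are known as huntingtin-interacting proteins, and the vesicle proteins SNAP-25 and cysteine string protein are among the substrates of Zdhhc17. Zdhhc17 ran from 8.75 to 8.93 in wild types, with a median of 8.83, and from 8.73 to 8.94 in mutants, with the same median of 8.83. Its log2 fold change was -0.0049 ± 0.026 (SE), with an interval from -0.058 to 0.048. Its dimmer probe set had a value of -0.0013 ± 0.052. Zdhhc13 ran from 9.45 to 9.58 in wild types, with a median of 9.50, and from 9.39 to 9.63 in mutants, with a median of 9.49. Of the 12 mutants 3 lay below all wild types and 1 above them all. The difference on the log2 scale was -0.018 ± 0.024, with an interval from -0.068 to 0.031.

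Zdhhc9, whose human counterpart is an X-linked intellectual disability gene, modifies Ras proteins together with a Golgi partner. It ran from 10.12 to 10.28 in wild types, with a median of 10.18, and from 10.05 to 10.31 in mutants, with a median of 10.17. The log2 fold change was -0.0064 ± 0.027 (SE), with an interval from -0.063 to 0.050. Zdhhc21, known for the palmitoylation of Src family kinases and endothelial signalling proteins had a median of 10.10 in wild types, whose values spanned 0.24 up to a highest of 10.24. In mutants the median was 10.05 and the values spanned 0.21 up to 10.21, and all 12 lay within the wild-type range. Its log2 fold change was -0.030 ± 0.029, with an interval from -0.090 to 0.030.

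Taking the 10 members by count, 1 fell, Zdhhc8, and none rose (limma, adjusted threshold 0.05 over all genes), against 0.228% of all genes lower, 0.531% higher and 0.76% in either direction. None of the other 9 reached an unadjusted p under 0.05, a mark that 11.9% of all genes reached. Their log2 fold changes lay between -0.050 and 0.032, with 7 below 0 and 2 above, and a median of -0.0064. Over all genes the median was -0.0014. The highest upper bound among their confidence intervals was that of Zdhhc7, and the lowest lower bound was that of Zdhhc3, at -7.07%. Of the members, Zdhhc7 had the smallest p for an interaction of genotype and array range, 0.0827 (limma, adjusted p = 0.813). Its log2 fold change was -0.041 ± 0.050 (SE) in arrays 1 to 12 and 0.11 ± 0.06 in arrays 13 to 24, the latter with a 95% confidence interval from -0.032 to 0.25. The interaction passed for 0 of the 18820 genes (limma), with 1105 at an unadjusted p under 0.05.

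The 13 other measured Zdhhc genes were examined in the same fit, and none passed the test in either direction (limma). Their median log2 fold change was 0.028, with 9 above 0 and 4 below. Of the 13, 2 had an unadjusted p under 0.05, against 11.9% of all genes. Zdhhc22 had the largest value of these. Its level ran from 10.71 to 11.06 in wild types, with a median of 10.91, and from 10.79 to 11.16 in mutants, with a median of 11.06. Thus 5 of 12 mutants lay above all wild types and the rest overlapped with them. The log2 fold change was 0.13 ± 0.04 (SE), or 9.43% higher with an interval from 2.63% to 16.7% (limma, adjusted p = 0.228). A second, dimmer probe set of Zdhhc22 gave 0.15 ± 0.05.

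Zdhhc11 had a log2 fold change of 0.13 ± 0.05 (SE) and Zdhhc25 one of 0.12 ± 0.06, each with 5 of 12 mutants above all wild types. Both are dim, with wild-type means of 4.59 and 5.30, below the array medians. For Zdhhc4 the value was 0.052 ± 0.031. In the other direction, the largest value was that of Zdhhc20, at -0.049 ± 0.031. None of these 4 passed the test, and their adjusted p-values lay between 0.331 and 0.556 (limma). Zdhhc16 was not measured by a probe set of its own, since both of its probe sets are annotated also to Mms19.

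**Figure D3:**
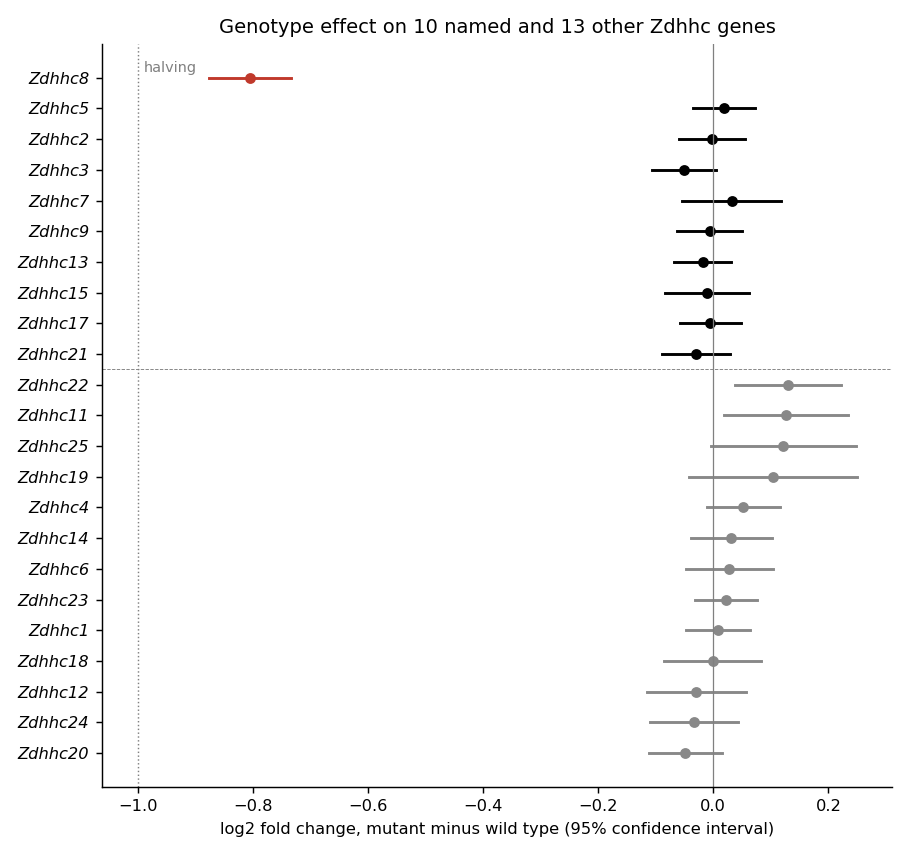
Log2 fold change, mutant minus wild type, with 95% confidence intervals (horizontal axis) for the 10 named palmitoyltransferase genes, above the dashed line, and the 13 other Zdhhc genes, below it. Zdhhc8 (red, past the adjusted threshold) lies at -0.80, to the right of the dotted line at -1 that marks a fall to 50%, and the 9 other named genes (black) lie between -0.050 and 0.032.

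Whether a related gene was higher in those mice in which Zdhhc8 was lower was examined within each genotype, because the genotypes form separate clusters for Zdhhc8. Of 18 relations, 9 genes in 2 genotypes, none passed after adjustment (permutation tests with 100000 resamples, two-sided). In mutants, Zdhhc5 had a Pearson r of -0.447 with Zdhhc8 and a Spearman rho of -0.524 (permutation p = 0.141 and 0.0839; adjusted p = 0.848 and 0.401; n = 12). In wild types the values were 0.169 and 0.189 (permutation p = 0.612 and 0.558; adjusted p = 0.897 and 0.746). Leaving out the 2 mice farthest from the Zdhhc8 median gave an r of -0.438 in mutants and 0.213 in wild types. The mutant with the lowest Zdhhc8, replicate 11 at 9.85, had the highest Zdhhc5, at 10.56. Without that mouse the log2 fold change of Zdhhc5 was 0.0061. The mutant with the highest Zdhhc8, replicate 1 at 10.15, had Zdhhc5 at 10.45, near the mutant median of 10.44.

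The largest Pearson correlation in mutants, over all 12, was with Zdhhc2, which was higher where Zdhhc8 was higher, with an r of 0.705 and a rho of 0.608 (permutation p = 0.0101 and 0.0399; adjusted p = 0.181 and 0.359; n = 12). Without the 2 mice farthest from the Zdhhc8 median, the r was 0.427, so its size rests in part on those mice. In wild types the r was 0.012 and the rho -0.168 (permutation p = 0.970 and 0.602). Zdhhc7 had an r of -0.560 and a rho of -0.622 in mutants (permutation p = 0.0578 and 0.0338; adjusted p = 0.520 and 0.359), and an r of -0.403 without the 2 farthest mice. In wild types its r was 0.144 (permutation p = 0.648). In mutants, r for the other members lay between -0.174, for Zdhhc9, and 0.374, for Zdhhc17. In wild types, Zdhhc17 had an r of -0.302 (permutation p = 0.345; adjusted p = 0.897) and one of -0.802 without the 2 farthest mice. Whether these relations differ between the genotypes was not tested.

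**Figure D4:**
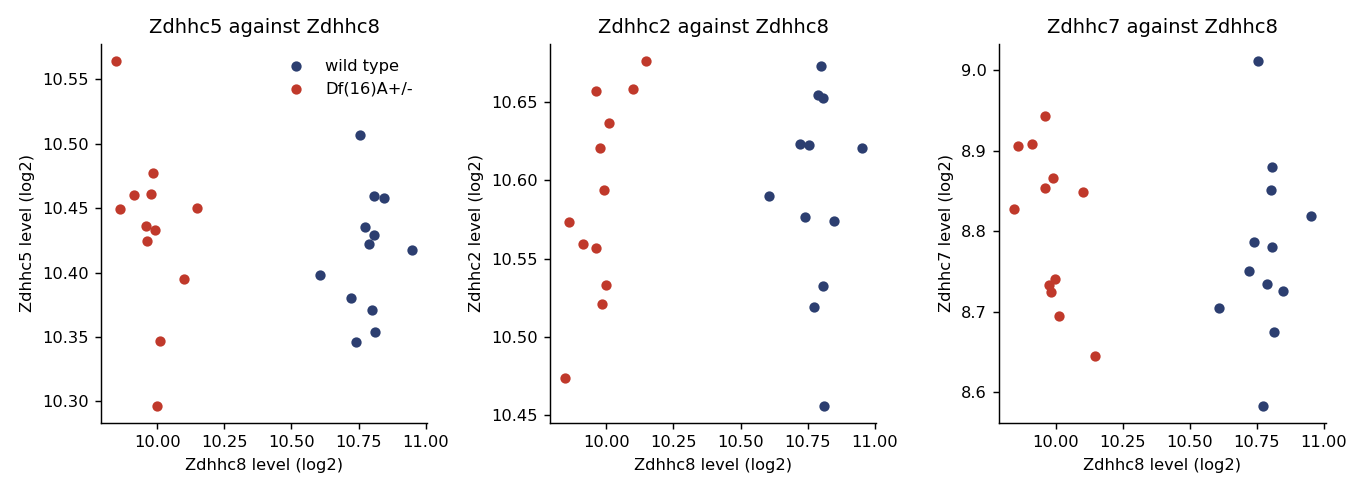
Log2 level of Zdhhc5, Zdhhc2 and Zdhhc7 (vertical axes) against that of Zdhhc8 (horizontal axes), with 1 point per mouse, wild types in dark blue and mutants in red. The genotypes separate along the Zdhhc8 axis and overlap along each vertical axis; within mutants, r was -0.447 for Zdhhc5, 0.705 for Zdhhc2 and -0.560 for Zdhhc7.

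Variation of the members among mice of a genotype was compared pair by pair. Over the 45 pairs of the 10 members, correlations of deviations from the genotype means, over 24 mice, had a median of 0.084, and 26 were above 0. The highest was between Zdhhc15 and Zdhhc21, at 0.602, and the lowest between Zdhhc9 and Zdhhc15, at -0.447. Zdhhc3 went with Zdhhc7 at 0.466 and with Zdhhc9 at 0.380. For Zdhhc8 and Zdhhc5 the value was -0.197. These values are descriptive, since the arrays were normalized together.

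Over the whole table, the genes whose deviations over the 24 mice were most like those of Zdhhc8 were Lmtk2, a membrane-bound kinase, at 0.834, and Klhl38, a kelch repeat protein, at 0.824. Next were Tlr3, a receptor for double-stranded RNA, at 0.798, Heg1, a membrane protein of endothelium, at 0.773, and P2ry12, a purine receptor of microglia, at 0.757. The corresponding 95th percentile over all genes was 0.395. The genes named here were picked as the most similar of all, so they lie above that percentile by construction. Whether their values are unusual for the highest among all genes was not tested. None of the genes named for Zdhhc8 passed the test between the genotypes (limma), with log2 fold changes between -0.015 and 0.13. The averaged endothelium and microglia markers had correlations of 0.573 and 0.526 with Zdhhc8 in the same measure (permutation within genotype, adjusted p = 0.102 and 0.135). By Spearman's rho the values were 0.730 and 0.516, and the endothelium relation passed by rank (permutation, adjusted p = 0.007 and 0.143). P2ry12 is itself 1 of the 8 averaged microglia markers, so the microglia value is not separate from its own. The part of the markers in these similarities was not tested. For Zdhhc5 the most similar genes were Decr2, an enzyme of peroxisomal fatty acid oxidation, at 0.731, and Evx2, a homeobox gene, at 0.721. They were followed by Zbtb17, a transcription factor, at 0.670, Slc22a16, a carnitine transporter, at 0.669, and Kcnf1, a potassium channel subunit, at 0.660.

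Partner proteins of the enzymes were examined next. All 4 listed genes were measured and none passed the test (limma). Golga7b, the partner of Zdhhc5, had a log2 fold change of -0.061 ± 0.032 (SE), with 5 of 12 mutants below all wild types, and Golga7, the partner of Zdhhc9, one of -0.021 ± 0.026. Selenok, the selenoprotein that works with Zdhhc6, had -0.036 ± 0.026. Htt, huntingtin, which binds Zdhhc17, had 0.063 ± 0.023 (limma, adjusted p = 0.279; unadjusted p = 0.0132).

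Of the 9 enzymes listed for depalmitoylation, none passed the test (limma), 7 lay below 0, and the median was -0.032. An unadjusted p under 0.05 was reached by 2 of the 9, against 11.9% of all genes. Ppt2, a lysosomal thioesterase, had the largest difference. It had a mean log2 level of 8.67 ± 0.08 (SD, n = 12) in wild types and 8.57 ± 0.08 in mutants, and 6 of 12 mutants lay below all wild types. Its log2 fold change was -0.10 ± 0.03 (SE; limma, adjusted p = 0.169). Abhd10, a mitochondrial depalmitoylase, had -0.063 ± 0.026. Abhd17b and Abhd17a, which act on PSD-95 and N-Ras at the plasma membrane, had -0.074 ± 0.038 and -0.072 ± 0.041.

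Proteins described as substrates of Zdhhc5 or Zdhhc8 were represented by 10 genes, none of which passed the test (limma). Of the 10, 1 had an unadjusted p under 0.05, against 11.9% of all genes. Flot2, a membrane scaffold modified by Zdhhc5, had a log2 fold change of -0.063 ± 0.028 (SE). Grip1, the AMPA receptor scaffold, had 0.048 ± 0.026, Akt1, a kinase of growth factor signalling, -0.027 ± 0.023, and Sstr5, a somatostatin receptor, 0.078 ± 0.068. The median over the 10 was -0.015. The arrays measure RNA, and whether these proteins carried more or less palmitate was not measured.

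Of 25 other palmitoylated neuronal proteins listed, 23 were measured and none passed the test (limma), with a median of -0.0073. An unadjusted p under 0.05 was found for 3 of the 23, against 11.9% of all genes. Nras, a Ras protein modified by Zdhhc9, had a log2 fold change of 0.084 ± 0.026 (SE), and 5 of the 12 mutants exceeded the highest wild type (limma, adjusted p = 0.162). Gria4, an AMPA receptor subunit, had -0.097 ± 0.030, with 5 of 12 mutants below all wild types (limma, adjusted p = 0.164). Gria1, another subunit of that receptor, had 0.046 ± 0.022, and Grin2b, an NMDA receptor subunit, 0.048 ± 0.031.

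**Figure D5:**
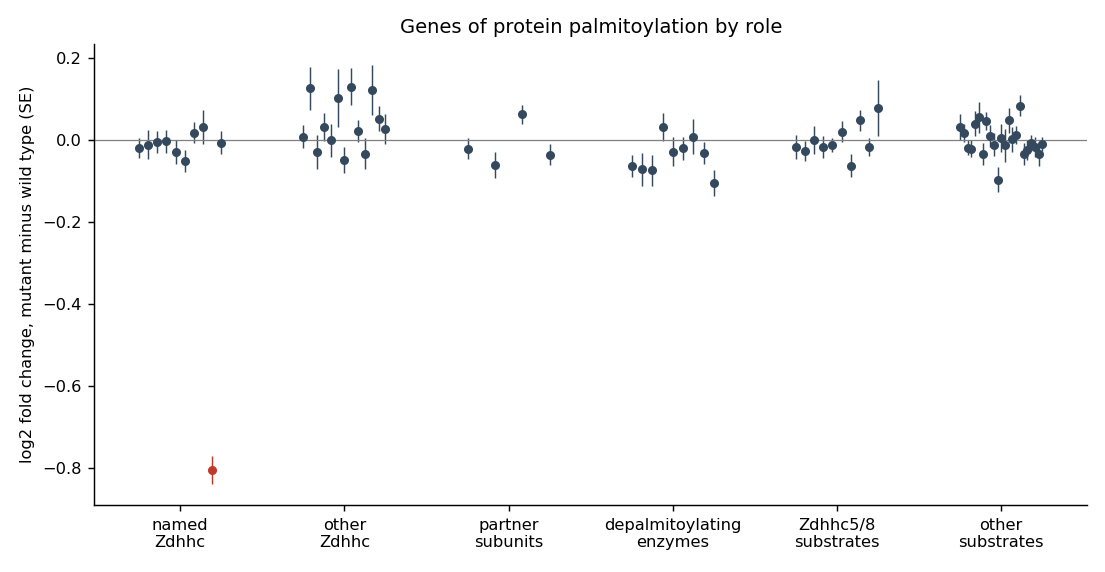
Log2 fold change, mutant minus wild type, with SE (vertical axis), for genes of protein palmitoylation grouped by role; red marks genes past the adjusted threshold and dark grey those that did not pass. Zdhhc8, at -0.80, is the sole red point; the lowest of the other points is Ppt2, at -0.10, and the highest Zdhhc22, at 0.13.

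Markers of cell types were read beside these results, because in bulk tissue fewer cells of a type and less RNA per cell cannot be told apart. Of 75 listed markers of 10 cell types or regions, 66 were measured and none passed the test (limma). Of the 66, 8 had an unadjusted p under 0.05, a mark reached by 11.9% of all genes. The neuron markers were bright, with Slc17a7 of excitatory neurons at 13.06 ± 0.04 (SD, n = 12) in wild types and Tbr1, a cortical layer factor, at 10.83 ± 0.07. Averaged over 9 neuron markers, mutants ran from 12.27 to 12.36 and wild types from 12.29 to 12.35. All 10 oligodendrocyte markers lay below 0, with a median of -0.060; their average ran from 8.58 to 9.01 in mutants and from 8.58 to 9.19 in wild types. Averages over the other lists also overlapped between the genotypes. Of 6 inhibitory neuron markers, 1 lay below 0 and the median was 0.041. Of 5 striatum markers, 2 lay below 0 and the median was 0.098, with Ppp1r1b at 0.13 ± 0.04 (SE) and Penk at -0.14 ± 0.05; the average ran from 8.25 to 8.46 in mutants and from 8.21 to 8.39 in wild types. Of the blood markers 4 were measured, with a median of -0.56, and their average reached 8.94 in wild types against 6.68 in mutants. Ngp was at -1.20 ± 0.43 (SE), S100a8 at -0.67 ± 0.32 and S100a9 at -0.46 ± 0.21, but Alas2 was at -0.054 ± 0.15. For Ngp the SD was 1.44 in wild types and 0.67 in mutants. Over all 24 mice, the blood average had its largest correlation in deviations from the genotype means with Zdhhc2. There r was -0.419 and rho -0.402 (permutation, adjusted p = 0.242 for r over 100 relations). That r was -0.047 in mutants, -0.615 in wild types and -0.319 without the 2 mice farthest out in the markers. With the blood average, r was -0.077 for Zdhhc8 and 0.191 for Zdhhc5.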

How the data were processed

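Total RNA from 24 samples (12 per genotype) was labelled from 100 ng with a whole-transcript kit, per the labels' protocols. The deposited values are log2 expression values, 1 per probe set and array, made by the authors with RMA, per the submitters' processing notes; neither a version nor the build is given in the sources used here. Values lay between 1.82 and 14.5 and array medians between 6.71 and 6.82. The number of arrays limits the precision.

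Of 35556 probe sets, 21218 had 1 gene symbol, 1881 several and 12457 none listed in the platform annotation used. The brightest single-symbol probe set stood for each of 18820 genes, of which 18790 matched the RefSeq table of GRCm38.p6. Genotypes were compared with limma 3.58.1 (lmFit, eBayes) in R 4.3.3, with Benjamini-Hochberg adjustment over all genes and a threshold of 0.05. The fit was tested on simulated data. Genes given a log2 difference of 0.05 were called in 0 of 50 cases, and those given 0.1 in 5 of 50. At 0.2 the count was 31 of 50, and at 0.8 it was 50 of 50. Not passing the test therefore does not by itself exclude a difference of 0.2 or less. Per-mouse correlations used 100000 resamples.

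The members, gene lists and alternatives were chosen with earlier results of these data known. Named were all members, the 4 genes with the smallest p of each other list, the 2 measured neighbours of Zdhhc8 on each side, the 2 interval genes next to it in size of change on each side, and the 5 genes most like Zdhhc8 and Zdhhc5. Zdhhc20 and the single cell type markers were named outside this rule, after their values were seen. The genotypes share replicate numbers 1 to 12. Same-numbered mice had deviations correlated at -0.076 to 0.311, above 0.1 in 6 of 12 pairs. The median was 0.096, against -0.014 for mutants and wild types of different numbers. Same-numbered mice were not treated as pairs in the main fit, and a fit with the replicate block is among the alternatives. Alternatives covered normalization, variance model, array weights, dim genes, probe set choice, replicate block, array order and arrays left out.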

Additional observations from a re-analysis of the deposited data

How the results depend on the processing

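Zdhhc8 fell in each of 37 alternatives, with log2 fold changes between -0.82 and -0.79, and no other member passed the test in any (smallest adjusted p = 0.321, limma). Their values near 0 changed sign in 32 of 333 cases. With quantile normalization Zdhhc2 was at 0.011, Zdhhc9 at 0.0095, Zdhhc15 at 0.0037 and Zdhhc17 at 0.011. With median centring they were at 0.011, 0.0074, 0.0022 and 0.0089. In arrays 1 to 12 alone Zdhhc7 was at -0.041 (0.11 in arrays 13 to 24), Zdhhc15 at 0.024 and Zdhhc17 at 0.0073. In arrays 13 to 24 alone Zdhhc2 was at 0.0012, Zdhhc9 at 0.027 and Zdhhc13 at 0.0017. Zdhhc9 was at 0.00076 with the array range as a term, and Zdhhc17 at 0.011 without the mutant arrays of replicates 5, 9 and 10. Leaving out single mice gave ranges of -0.015 to 0.0076 for Zdhhc2, -0.018 to 0.0054 for Zdhhc9, -0.030 to 0.0024 for Zdhhc15 and -0.015 to 0.0047 for Zdhhc17.

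Of all genes, 43 were lower and 100 higher. The count of lower genes was 66 with a trended variance, 66 without the dimmest 25% of genes, 67 without the dimmest 50%, and 23 and 22 in arrays 1 to 12 and 13 to 24 alone. The count of higher genes was 48 without the dimmest 50% and 35 in each array range alone. The dim-gene filters test fewer genes and the array ranges hold fewer mice. Leaving out single mice gave 37 to 56 lower and 82 to 108 higher genes. With the replicate block, 37 genes were lower and 110 higher, the adjusted p of Zdhhc8 was 1.95e-09, and no call among the members changed; 2 mutants and 3 wild types of 12 each deviated most like the mouse of their own number.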

Other observations

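Deviations of the members from their genotype means were set against those of the averaged cell type markers over the 24 mice, a comparison chosen after values had been seen. Of 100 relations, 10 members with 10 marker lists, 2 passed for Pearson's r after adjustment (permutation within genotype, 100000 resamples, two-sided). Zdhhc3 was higher in mice with higher inhibitory neuron markers, with an r of 0.698 and a rho of 0.754 (permutation p = 0.00019 and 0.00014; adjusted p = 0.0145 and 0.007). The r was 0.693 in mutants, 0.743 in wild types, 0.787 in arrays 1 to 12, 0.610 in arrays 13 to 24 and 0.671 without the 2 mice farthest out in the markers. Zdhhc3 also had an r of 0.507 with oligodendrocyte precursor markers and 0.496 with neuron markers, neither passing (permutation, adjusted p = 0.147 for each). Among the substrates known for Zdhhc3 is the gamma 2 subunit of GABA-A receptors, and a link of this to the relation was not tested.

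Zdhhc9 was lower in mice with higher astrocyte markers, with an r of -0.704 and a rho of -0.657 (permutation p = 0.00029 and 0.00081; adjusted p = 0.0145 and 0.027). The r was -0.665 in mutants, -0.762 in wild types, -0.686 in arrays 1 to 12, -0.789 in arrays 13 to 24 and -0.597 without the 2 farthest mice. Zdhhc8 had an r of 0.573 with the endothelium markers and a rho of 0.730 (adjusted p = 0.102 and 0.007, permutation), so that relation passed by rank alone. Its r was 0.360 in arrays 1 to 12 and 0.668 in arrays 13 to 24. What underlies these relations was not tested.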
